A study of Mus musculus with 9 samples.

Results

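Proximal limb and retinoic acid genes were examined in H3K27ac peak lists of mouse forelimb buds. The set holds 9 of the 21827 protein-coding genes annotated by GENCODE M21 on the mouse build mm10, namely Meis1, Meis2, Pbx3, Cyp26b1, Aldh1a2, Rdh10, Rarb, Rarg and Crabp2. They were chosen by name for their roles, with no threshold on signal. A peak was given to a gene if it lay in the gene span or within 50 kb of either end, a region called the gene's window below.

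H3K27ac, the acetylation of histone H3 at lysine 27 that marks active promoters and enhancers, was measured by MicroChIP-seq, a chromatin immunoprecipitation for few cells, in which each immunoprecipitation took 1 pair of forelimb buds from 1 embryo at E10.5 (embryonic day, 33 to 34 somites). The 9 libraries comprised 2 H3K27ac samples and 1 input for each of 3 genotypes. The labels give a mixed strain background, while the study's methods give Swiss Webster for the Shh and Gli3 null alleles. These were WT (littermates with both Shh and Gli3 intact), Shh-/- (a germline null of the ligand Sonic hedgehog) and Shh-/-;Gli3-/- (lacking in addition Gli3, the main GLI repressor of the limb, through the Xt-J allele). The comparisons ask which acetylated regions depend on Hedgehog (HH) signaling and which return once GLI3 repression is also removed. Each genotype has a single deposited peak list, so every value below is 1 number per genotype with no replicate error and no test, and intervals cover counting error over peaks only.

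Meis1, Meis2 and Pbx3 encode TALE homeodomain proteins, and Meis genes mark the proximal part of the limb bud, nearest the body wall. Retinoic acid is made from retinol by retinol dehydrogenases such as RDH10 and then by retinaldehyde dehydrogenases such as ALDH1A2, acts through nuclear receptors that include RARB and RARG, and is carried inside the cell by CRABP2. CYP26B1 oxidizes retinoic acid in the distal limb bud and so keeps it low there.

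The 3 lists differ in size, which bears on every value here. The WT list held 25096 peaks over 10.4 Mb, the Shh-/- list 32085 peaks over 12.9 Mb and the Shh-/-;Gli3-/- list 34641 peaks over 17.1 Mb. Promoter peaks of the limb mesenchyme genes Prrx1, Twist1, Lhx2 and Msx1 and of the forelimb gene Tbx5 were in all 3 lists, while the epithelial Fgf8, Epcam and Krt8, the blood genes Gata1 and Hba-a1, the endothelial Kdr and the neural Sox1 had no promoter peak in any. Pecam1 (endothelium) and Lbx1 (muscle precursors) had promoter peaks of 250 bp in the Shh-/-;Gli3-/- list alone. No peak lay in the Shh window in any list and the Gli3 promoter was covered in each, so the lists do not check the deletions. Of the HH targets, Gli1 had a promoter peak of 500 bp in WT and none in either mutant. The Ptch1 window had 5600, 1750 and 9100 bp under peaks in WT, Shh-/- and Shh-/-;Gli3-/-. The study reports greatly reduced H3K27ac in Shh-/-;Gli3-/- at GLI-bound regions near both genes, which is a measure of single regions and not of a window. Since whole buds were used, a change in the share of acetylated cells and a change in acetylation per cell cannot be told apart.

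In the windows of the 9 genes lay 84 WT, 96 Shh-/- and 108 Shh-/-;Gli3-/- peaks, with a covered length (base pairs under peaks) of 49400, 56350 and 69686 bp. The authors' false discovery rate (FDR) was below 0.05 for 63.1%, 74.0% and 76.9% of these peaks, against 60.8%, 72.4% and 83.4% of the whole lists. A promoter peak, meaning a peak that touched the stretch from 2 kb before to 1 kb after a protein-coding start of the gene, was present at 8 of the 9 genes in each list. Among all protein-coding genes 44.3% had one in WT, 48.2% in Shh-/- and 46.3% in Shh-/-;Gli3-/-. The 8 genes were the same in all 3 lists, and Aldh1a2 was the exception.

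**Figure D1:**
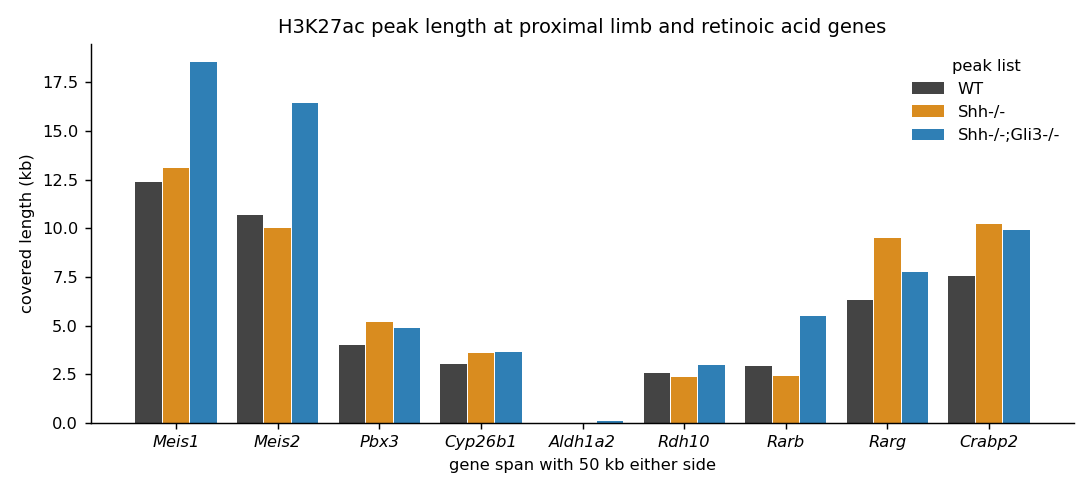
Covered length in kb (bars, 1 peak list each, no replicate error) in the window of each gene, in the WT, Shh-/- and Shh-/-;Gli3-/- lists. The Shh-/-;Gli3-/- bar is the highest at Meis1, Meis2, Cyp26b1, Rdh10 and Rarb and the Shh-/- bar at Pbx3, Rarg and Crabp2, while Aldh1a2 has 0.1 kb in the Shh-/-;Gli3-/- list and 0 elsewhere.

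Among the proximal factors, the Meis1 window (gene at chr11:18879817-19018985, minus strand) had a covered length of 12400 bp in WT, 13100 bp in Shh-/- and 18550 bp in Shh-/-;Gli3-/-. The Meis2 window (gene at chr2:115863064-116065839, minus strand) had 10700, 10000 and 16436 bp. The Pbx3 window (gene at chr2:34171457-34373142, minus strand) had 4000, 5200 and 4850 bp. Thus the Meis genes had about as much peak length in Shh-/- as in WT and more in Shh-/-;Gli3-/-, whereas Pbx3 had its highest value in Shh-/-. The highest fold over input of any peak at Meis1 exceeded that of 94.1% of WT, 97.3% of Shh-/- and 92.2% of Shh-/-;Gli3-/- peaks, so this was a strongly acetylated locus in each list on the list's own scale. The same percentages were 97.4%, 98.7% and 91.8% at Meis2 and 96.5%, 98.5% and 98.3% at Pbx3.

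Of the enzymes of retinoic acid supply, Aldh1a2 had next to no peak and the Rdh10 window a strong one. Aldh1a2 (chr9:71215789-71296243, plus strand) had no peak in the WT and Shh-/- lists. Its 1 Shh-/-;Gli3-/- peak was 100 bp wide, lay 122 kb from the start and had a fold above that of only 4.16% of its list. No acetylation of this gene was detectable at the authors' peak threshold in the other lists, which is not a measure of absence. Rdh10 (chr1:16105774-16133734, plus strand) had 2550, 2350 and 2950 bp in WT, Shh-/- and Shh-/-;Gli3-/-, of which 2450, 2350 and 2650 bp lay in a single stretch over its promoter at chr1:16103550-16106449. Acetylation in this window thus lay in that stretch and nearly nowhere else, with a top fold above that of 89.4%, 95.4% and 94.3% of each list. The window also holds the promoters of Rpl7 and 4930444P10Rik. In each list the widest peak of the stretch ended before the Rdh10 start, and in Shh-/-;Gli3-/- its centre lay in a UTR exon of Rpl7. It cannot be told apart which gene this peak belongs to. The peaks over or past the Rdh10 start had log2 folds of 2.68 and 2.57 in WT, 2.92 in Shh-/- and 3.41 in Shh-/-;Gli3-/-.

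Cyp26b1 (chr6:84571414-84593908, minus strand), the enzyme of breakdown, had 3000 bp in WT, 3600 bp in Shh-/- and 3650 bp in Shh-/-;Gli3-/-. Its promoter peaks did not lie at the most upstream starts. The RefSeq promoter at chr6:84593761-84594060 held no peak in any list, and the acetylated stretch lay inside the gene over its internal starts at chr6:84586800-84589099, with 2000, 1750 and 1900 bp covered. A neighbouring intronic region at chr6:84584700-84586199, 2.23 kb from the nearest start, was covered over 500 bp in WT, 950 bp in Shh-/- and 1350 bp in Shh-/-;Gli3-/-. No WT peak there had an FDR below 0.05 (lowest 0.135), while the lowest FDR was 0 in Shh-/- and 0.000889 in Shh-/-;Gli3-/-.

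Of the receptors, Rarb (chr14:16430839-16819156, minus strand) had 2900 bp in WT, 2400 bp in Shh-/- and 5500 bp in Shh-/-;Gli3-/-. Rarg (chr15:102234938-102257517, minus strand) had 6300, 9500 and 7750 bp. The highest value was thus in Shh-/-;Gli3-/- for Rarb and in Shh-/- for Rarg. Crabp2 (chr3:87948666-87953376, plus strand), the binding protein, had 7550, 10200 and 9900 bp and so more in both mutants than in WT. The Rarg and Crabp2 windows each hold 6 other protein-coding genes. Without the promoter peaks of other genes Rarg had 4450, 6900 and 5150 bp and Crabp2 4850, 6550 and 6150 bp, in the same order.

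Per 100 kb of window, Crabp2 had the highest covered length in WT at 7210 bp, followed by Meis1 at 5185 bp, Rarg at 5140 bp and Meis2 at 3534 bp. Without the promoter peaks of other genes, Crabp2 had 4632 bp and Rarg 3630 bp per 100 kb, and Meis1 was then the highest. Rarb, whose window is 488318 bp long, had 594 bp and was the lowest of the 8 acetylated genes. With no replicate values, it cannot be said which neighbours in this order differ.

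The 3 comparisons were summarised by the ratio of covered lengths for genes with at least 1000 bp in 1 of the 2 lists, which left out Aldh1a2, and a ratio of at least 1.5-fold was counted. In Shh-/- against WT, Rarg was higher by that rule (ratio 1.51) and no gene of the 8 was lower. Across all genes tested 25.1% were higher and 2.76% lower, so 1 of 8 is no more than the whole list would give. The median ratio was 1.13 at the 8 genes and 1.20 over all genes. The 3 lowest ratios were those of Rarb (0.828), Rdh10 (0.922) and Meis2 (0.935), and 8.56%, 15.7% and 16.7% of all genes had lower ones.

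In Shh-/-;Gli3-/- against WT, all 8 genes had more covered length and 2 of them, Rarb (1.90) and Meis2 (1.54), passed the 1.5-fold rule, with Meis1 just under it (1.496). None was lower. When each list was cut to the same total covered length, Pbx3, Cyp26b1 and Rarg turned lower than WT (log2 ratios of -0.32, -0.66 and -0.35), Meis2 fell to a log2 ratio of 0.013 and Rarb, at 0.53, no longer passed, so these directions depend on list size. Among all genes 35.2% were higher and 0.806% lower, and the median ratio was 1.27 at the 8 genes and 1.33 over all, so by this measure the 8 genes had gained no more than the list as a whole. In Shh-/-;Gli3-/- against Shh-/-, the same 2 genes were higher, Rarb at 2.29 and Meis2 at 1.64, and none was lower, where 17.3% of all genes were higher and 5.19% lower. Here Rarb stood above 95.04% of all genes, Meis2 above 87.5% and Meis1 (1.42) above 79.8%. The last comparison shares the Shh-/-;Gli3-/- list with the one before it, so the gene names in common are not independent.

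Because list size alone shifts these ratios, they were also taken relative to their median over all genes. No gene of the 8 was then 1.5-fold higher or lower than WT in either mutant, and 1 gene, Rarb, was higher in Shh-/-;Gli3-/- than in Shh-/-. Centring moved the higher and lower shares over all genes to 12.8% and 7.12% for Shh-/- against WT, 15.5% and 3.88% for Shh-/-;Gli3-/- against WT, and 12.5% and 8.44% for Shh-/-;Gli3-/- against Shh-/-.

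**Figure D2:**
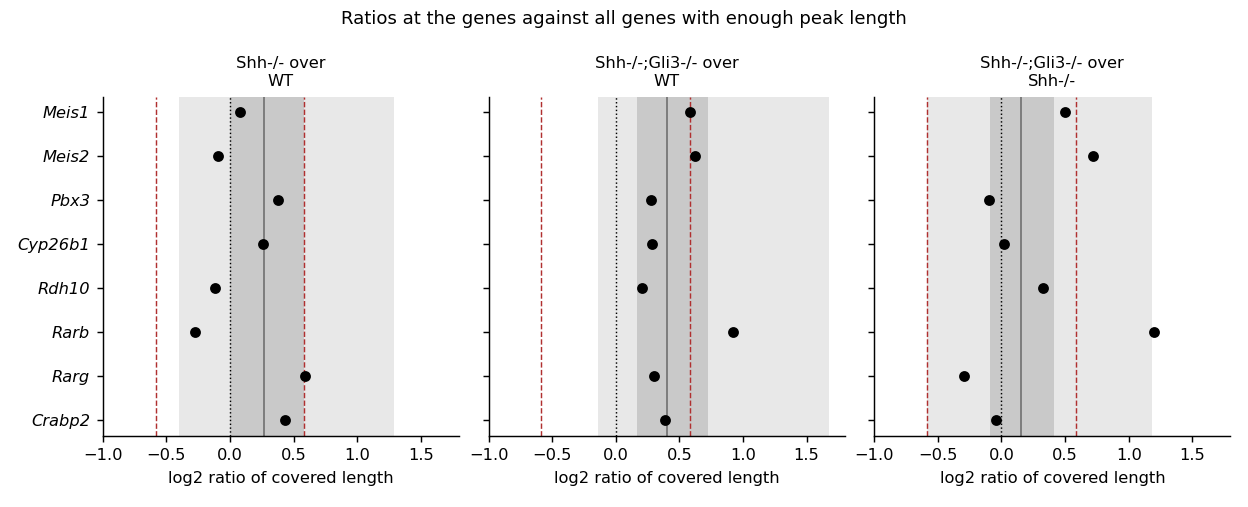
Log2 ratio of covered length (x axis, points) at 8 genes in each of the 3 comparisons, with the middle 50% and 90% of all genes tested as dark and light bands, their median as a grey line, 0 as a dotted line and 1.5-fold either way as dashed lines. Meis1, Meis2 and Rarb lie to the right of the dark band for Shh-/-;Gli3-/- over Shh-/- Rarb also for Shh-/-;Gli3-/- over WT and Rarg, at its edge, for Shh-/- over WT.

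At promoters, the widest peak gave an order that turned on how the acetylated stretch was cut. The widest Meis1 promoter peak was 6800 bp in WT (chr11:19013700-19020499), 2750 bp in Shh-/- and 7050 bp in Shh-/-;Gli3-/-. The widest Meis2 promoter peak was 7500 bp in WT (chr2:116060650-116068149), 3550 bp in Shh-/- and 8400 bp in Shh-/-;Gli3-/-. By widest peak, both Meis promoters were therefore more than 1.5-fold narrower in Shh-/- than in WT and about as wide as WT in Shh-/-;Gli3-/-. In base pairs under peaks the 3 lists were much closer. Over the Meis1 stretch chr11:19013300-19020499, 6800 bp were covered in WT, 7050 bp in Shh-/- and 7050 bp in Shh-/-;Gli3-/-, and the Shh-/- list merely broke it into 2 peaks that were 50 bp apart. Over the Meis2 stretch chr2:116060250-116068649, 7900 bp were covered by 3 peaks in WT, 7300 bp by 7 peaks in Shh-/- and 8400 bp by 1 peak in Shh-/-;Gli3-/-, with a largest gap of 350 bp in Shh-/-. With gaps of up to 500 bp closed, a setting chosen after these values were seen, the widest promoter peaks were 7750, 7850 and 8350 bp at Meis1 and 8800, 9350 and 9250 bp at Meis2.

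Crabp2 showed the opposite. Its widest promoter peak was 1700 bp in WT, 5200 bp in Shh-/- and 5000 bp in Shh-/-;Gli3-/-, but over the stretch chr3:87944850-87950099 the WT list had 6 peaks that together covered 4250 bp, with no gap above 200 bp. With gaps closed the widths were 4850, 5200 and 5450 bp. At Pbx3 (2100, 2500 and 1850 bp), Cyp26b1 (1450, 1650 and 1900 bp), Rdh10 (1900, 2150 and 2100 bp) and Rarg (3050, 3200 and 3300 bp) the widest promoter peaks were within 1.5-fold of each other in the 3 lists as deposited. With gaps closed this no longer held for Cyp26b1, whose promoter peak joined the intronic region next to it in Shh-/- and was 2150, 5450 and 2250 bp wide.

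By the 1.5-fold rule on the widest promoter peak, Crabp2 was wider and Meis1 and Meis2 were narrower among the 7 genes tested in Shh-/- against WT, where 21.8% of all genes tested were wider and 12.4% narrower. In Shh-/-;Gli3-/- against WT, Rarb and Crabp2 were wider and none of 8 was narrower, with 39.5% and 1.79% of all genes. In Shh-/-;Gli3-/- against Shh-/-, Meis1, Meis2 and Rarb were wider and none of 8 was narrower, with 33.1% and 5.16% of all genes. Of these 8 calls, the 6 at Meis1, Meis2 and Crabp2 rest on gaps of at most 350 bp inside a stretch. Those at Rarb also involve a broken stretch, with a largest gap of 200 bp in WT and 300 bp in Shh-/-. With gaps of up to 500 bp closed, the Rarb widths were 1100, 950 and 1900 bp and still passed the rule. The last width then took in the distal region chr14:16574100-16574249.

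**Figure D3:**
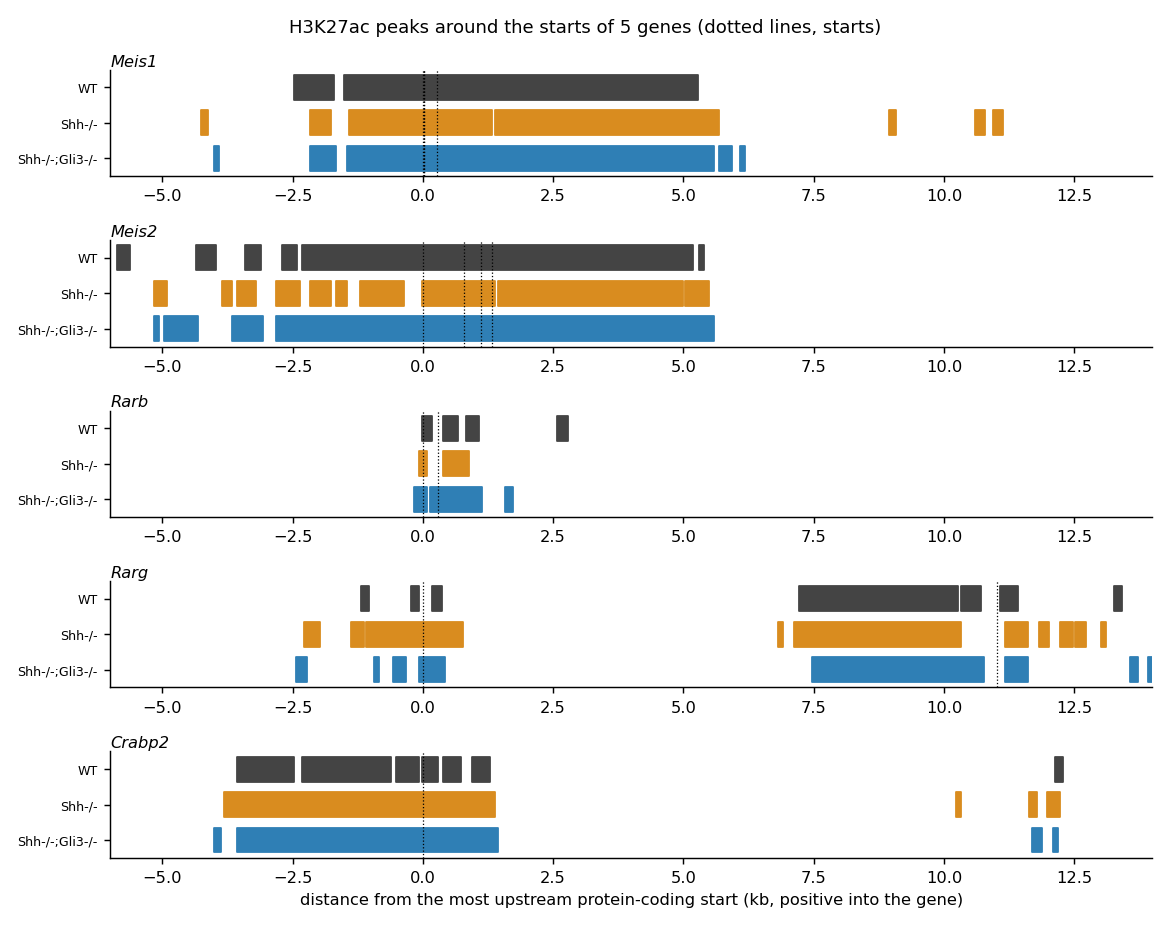
Peaks (bars) of the 3 lists along the distance in kb from the most upstream protein-coding start of Meis1, Meis2, Rarb, Rarg and Crabp2, with positive values into the gene and all starts as dotted lines. Meis1 and Meis2 are covered over about the same stretch in all 3 lists but broken in Shh-/-, Crabp2 is broken in WT, and the upstream Rarg start is covered widely in Shh-/- alone.

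Rarb and the upstream promoter of Rarg differed between lists in base pairs under peaks. Rarb is a textbook retinoic acid target, with a retinoic acid response element in its promoter. Its acetylated promoter stretch, chr14:16574700-16575999, was covered over 750 bp (57.7%) by 3 peaks in WT, 650 bp (50%) by 2 peaks in Shh-/- and 1250 bp (96.2%) by 2 peaks in Shh-/-;Gli3-/-. The widest peak there was 300, 500 and 1000 bp. The stretch was thus nearly filled in Shh-/-;Gli3-/- and about as patchy in Shh-/- as in WT. The element was searched for as 2 half-sites of 6 bases (AGGTCA, with G also allowed as the first and T as the third base) in direct repeat with a spacer of 5 bases on either strand. The RefSeq promoter of Rarb (chr14:16575427-16575726, GRCm38.p6) held 1, printed here from the gene's minus strand at chr14:16575506-16575535 with the half-sites in capitals because it is the known link between this gene and the pathway.
Rarb promoter element: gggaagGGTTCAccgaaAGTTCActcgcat
The repeat began 53 bases upstream of the RefSeq start. A Shh-/-;Gli3-/- peak held all 30 bases, whereas the nearest WT peak and the nearest Shh-/- peak were each 57 bp away. In those 2 lists the element lay in a gap of 200 bp (WT) or 300 bp (Shh-/-) with promoter peaks on both sides. Gaps of this size split the stretches of the other genes too, so the element cannot be called acetylated in Shh-/-;Gli3-/- alone. The same pattern was in 0.0974% of the 32851 RefSeq promoters of 300 bases, and in none of the other 6 promoters of the set.

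The upstream Rarg promoter, at chr15:102256750-102258899, was covered over 500 bp (23.3%) in WT, 2100 bp (97.7%) in Shh-/- and 850 bp (39.5%) in Shh-/-;Gli3-/-. In the Shh-/- list its top peak had a fold above that of 98.4% of the list. The internal Rarg promoter stretch, chr15:102246750-102250399, was covered over 3450, 3200 and 3300 bp. Of the 2 Rarg promoters, the upstream one thus had the wider range between lists, and there the Shh-/- list stood apart from both others.

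Peaks of the 3 lists that overlapped each other were merged into regions, and a region was called distal if no base of it touched a promoter window of any protein-coding gene. There were 120 such regions at the 9 genes. They were unevenly spread, with 39 at Meis1, 29 at Meis2, 15 at Rarb, 9 each at Pbx3 and Crabp2, 8 at Cyp26b1, 7 at Rarg, 3 at Rdh10 and 1 at Aldh1a2. Together they covered 12650 bp in WT, 15850 bp in Shh-/- and 28750 bp in Shh-/-;Gli3-/-. That is 2.27 times as much in Shh-/-;Gli3-/- as in WT, against 2.69 times over all distal regions. A distal peak that overlapped a promoter peak of another list was left out by this rule. The largest, a Shh-/- peak of 4300 bp at chr11:19013300-19017599, is part of the Meis1 promoter stretch. Counted peak by peak, the distal lengths were 14450, 21050 and 29186 bp. At Meis1 the distal length was 4850, 5650 and 11000 bp, at Meis2 2800, 2700 and 8050 bp and at Rarb 2150, 1750 and 4250 bp, so by region the Shh-/- list was near WT at these 3 genes and the Shh-/-;Gli3-/- list apart. Counted peak by peak this did not hold for Meis1, which then had 4850, 9950 and 11000 bp. Meis2 then had 3200, 3600 and 8036 bp, and Rarb was the same. Over all distal regions, the covered length relative to WT was 1.502 in Shh-/- and 2.69 in Shh-/-;Gli3-/-. By region, Meis1, Meis2 and Rarb had 1.16, 0.964 and 0.814 in Shh-/-, all below that background. In Shh-/-;Gli3-/- they had 2.27, 2.875 and 1.98, so only Meis2 was above the background there.

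Of the 120 regions, 15 were found in all 3 lists (12.5%, interval 7.72 to 19.6), against 9.25% of the 34564 distal regions of the genome. Only 1 was in WT and Shh-/- (0.833%, against 1.23%), 3 were in WT and Shh-/-;Gli3-/- (2.5%, against 3.81%) and 9 were in both mutants (7.50%, against 6.83%). In WT only were 19 (15.8%, against 14.3%), in Shh-/- only 26 (21.7%, against 25.2%) and in Shh-/-;Gli3-/- only 47 (39.2%, against 39.3%). Every genome share lay within the interval of the share at these genes. Regions of a single list were small, with a median width of 150 bp, and 53.3% of them had an FDR below 0.05, where regions of 2 or 3 lists had a median of 650 bp and 96.4%. Over all distal regions the same values were 150 bp and 57.9% for a single list and 500 bp and 96.1% for 2 or 3 lists, so this is not particular to these genes. Many regions of a single list were thus narrow peaks close to the threshold of calling.

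**Figure D4:**
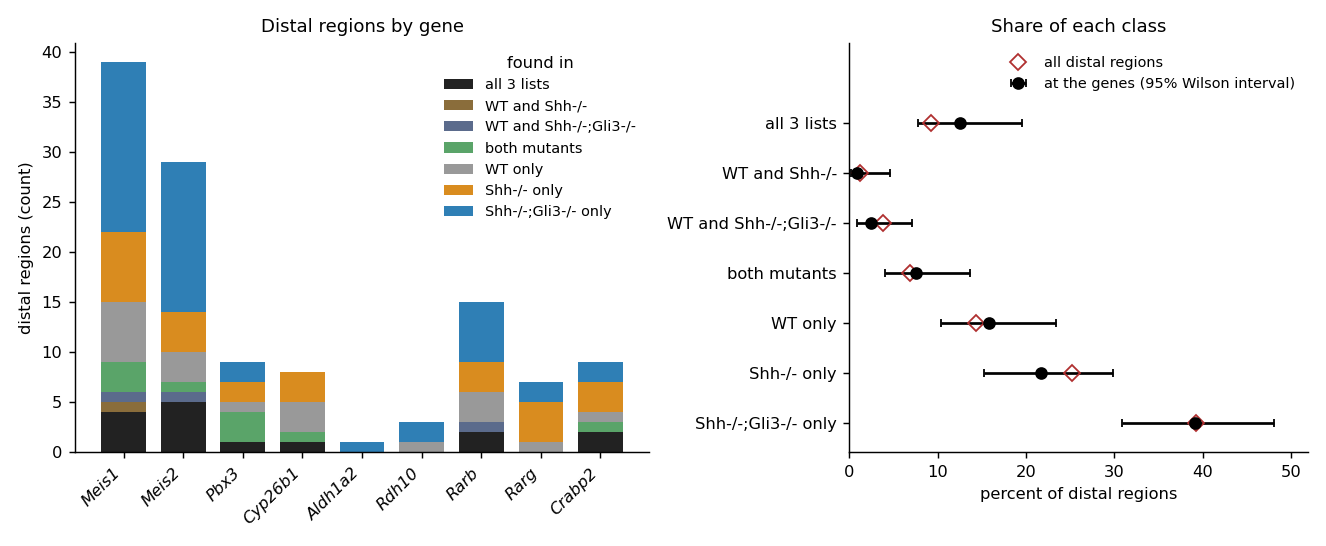
Left, number of distal regions at each gene by the lists they were found in. Right, percent of the 120 regions in each class (points, with 95% Wilson intervals for counting error) and percent of all 34564 distal regions (diamonds), which all lie within the intervals.

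Of the 52 WT peaks that touched no promoter window themselves, 26 (50%, interval 36.9 to 63.1) were overlapped by a Shh-/- peak and 32 (61.5%, interval 48.0 to 73.5) by a Shh-/-;Gli3-/- peak, by at least 1 bp. Over all distal WT peaks the shares were 39.0% and 52.4%, both within these intervals. With 52 peaks, a difference from the genome in how often WT peaks recurred in a mutant was not detectable.

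Regions found in all 3 lists gave the firmest distal acetylation. At Meis2 the region with the highest fold in any list, chr2:115859500-115860849, lay in intergenic sequence 204 kb from the start and past the 3' end of the gene, and was covered over 950 bp in WT, 500 bp in Shh-/- and 1350 bp in Shh-/-;Gli3-/-. At Meis1, chr11:18883800-18886699 lay 133 kb from the start at a UTR exon of the gene and was covered over 1500, 850 and 2900 bp. Both regions had the lowest covered length in Shh-/- and the highest in Shh-/-;Gli3-/-. Other regions of all 3 lists near the same 3' ends were lowest in WT, with 1300, 1350 and 2000 bp at chr11:18876850-18879249 for Meis1 and 250, 550 and 1050 bp at chr2:115869450-115870499 and 150, 250 and 550 bp at chr2:115868600-115869149 for Meis2. At Pbx3, chr2:34249350-34250249 lay in an intron 122 kb from the start and was covered over 850, 500 and 850 bp. For Rarb, an intronic region at chr14:16553700-16555749, 20.8 kb from the start, was covered over 1000, 1000 and 1750 bp.

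The central 300 bases of the Meis2 and Pbx3 regions are printed from the plus strand of GRCm38.p6, as examples present in every genotype, with matches to TGACAG (a MEIS site) and TGATTNAT (a PBX-HOX site) on either strand in capitals.
Meis2, all 3 lists, chr2:115860025-115860324: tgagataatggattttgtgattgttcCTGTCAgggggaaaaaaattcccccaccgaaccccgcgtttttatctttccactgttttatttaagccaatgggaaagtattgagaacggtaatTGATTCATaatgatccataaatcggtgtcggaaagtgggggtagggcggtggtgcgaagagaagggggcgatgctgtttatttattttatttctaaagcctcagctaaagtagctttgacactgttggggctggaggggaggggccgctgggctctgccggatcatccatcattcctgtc
Pbx3, all 3 lists, chr2:34249650-34249949: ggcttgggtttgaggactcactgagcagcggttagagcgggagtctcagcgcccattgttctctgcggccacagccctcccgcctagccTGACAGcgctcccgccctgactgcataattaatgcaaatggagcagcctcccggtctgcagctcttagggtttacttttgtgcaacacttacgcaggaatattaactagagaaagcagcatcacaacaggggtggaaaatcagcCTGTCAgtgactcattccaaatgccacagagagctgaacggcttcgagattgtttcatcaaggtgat
The Meis2 window held 1 match to each and the Pbx3 window 2 matches to TGACAG.

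The 9 regions of both mutants included a group in a Pbx3 intron. Within 2 kb, at chr2:34251900-34252299, chr2:34252600-34253199 and chr2:34253350-34253899, lay 3 regions about 118 to 120 kb from the start. They were covered over 150, 600 and 400 bp in Shh-/- and 350, 250 and 350 bp in Shh-/-;Gli3-/-, and held no WT peak, although the Pbx3 region of all 3 lists lies close by. A further Shh-/- peak, at chr2:34254950-34255149, was the one of highest fold among the regions of Shh-/- only. At Meis1 an intronic region, chr11:18930650-18931199, was covered over 150 bp in Shh-/- and 550 bp in Shh-/-;Gli3-/- and not in WT. The Pbx3 region of highest fold is printed on the plus strand, and held no match to any pattern searched.
Pbx3, both mutants, chr2:34253475-34253774: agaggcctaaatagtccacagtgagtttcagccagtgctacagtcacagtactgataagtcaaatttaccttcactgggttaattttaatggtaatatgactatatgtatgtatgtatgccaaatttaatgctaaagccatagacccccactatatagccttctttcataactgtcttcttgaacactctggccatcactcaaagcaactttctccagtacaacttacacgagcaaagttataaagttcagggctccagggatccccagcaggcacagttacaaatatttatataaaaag

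Present in WT and Shh-/-;Gli3-/- but not in Shh-/- were 3 regions. The Rarb region, chr14:16523300-16524049, lay in an intron 51.9 kb from the start and was covered over 350 bp in WT and 750 bp in Shh-/-;Gli3-/-. It was flanked by a region of all 3 lists, chr14:16522400-16523099 (400, 300 and 700 bp), and by chr14:16521900-16522299, found over 400 bp in Shh-/-;Gli3-/- only. This cluster of the Rarb intron was therefore acetylated in all genotypes, with the least covered length in Shh-/- and the most in Shh-/-;Gli3-/-. The other two regions were smaller, at chr11:18871750-18872099 near the 3' end of Meis1 (350 and 200 bp, in an intron of 8430419K02Rik) and at chr2:116076300-116076449 upstream of Meis2 (150 and 100 bp, in an intron of G630016G05Rik). The Rarb region is printed on the plus strand as the one of highest fold in this class, and held no match.
Rarb, WT and Shh-/-;Gli3-/-, chr14:16523525-16523824: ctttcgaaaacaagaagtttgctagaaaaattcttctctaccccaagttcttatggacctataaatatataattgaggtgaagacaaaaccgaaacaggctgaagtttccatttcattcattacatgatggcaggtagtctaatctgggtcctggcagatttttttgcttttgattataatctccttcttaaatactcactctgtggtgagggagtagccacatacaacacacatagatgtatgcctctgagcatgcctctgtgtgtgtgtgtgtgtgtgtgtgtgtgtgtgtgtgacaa

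Most regions of Shh-/-;Gli3-/- only were at the Meis genes, 17 at Meis1 and 15 at Meis2, with 6 at Rarb, but so were most distal regions of any class. They made up 43.6% (interval 29.3 to 59.0), 51.7% (34.4 to 68.6) and 40% (19.8 to 64.3) of the distal regions of each gene. The share over all distal regions, 39.3%, lay within each interval. After the Rarb region above, the highest folds in this class were at chr2:115897850-115898349 in a Meis2 intron (500 bp) and at chr11:19013050-19013299 in a Meis1 intron (250 bp), the latter bordering the promoter stretch. The Meis2 region is printed on the plus strand, with its TGACAG match in capitals.
Meis2, Shh-/-;Gli3-/- only, chr2:115897950-115898249: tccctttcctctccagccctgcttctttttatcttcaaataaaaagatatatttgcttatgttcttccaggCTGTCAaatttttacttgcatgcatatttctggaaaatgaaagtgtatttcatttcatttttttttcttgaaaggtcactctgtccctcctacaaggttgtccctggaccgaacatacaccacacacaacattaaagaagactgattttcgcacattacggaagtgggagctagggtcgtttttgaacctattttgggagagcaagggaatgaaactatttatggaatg
Of the WT only regions, the 3 of highest fold were chr11:18916850-18917049 and chr11:18944450-18944599 in Meis1 introns and chr14:16573050-16573249 in a Rarb intron 2.39 kb from the start. They were 200, 150 and 200 bp wide.

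**Figure D5:**
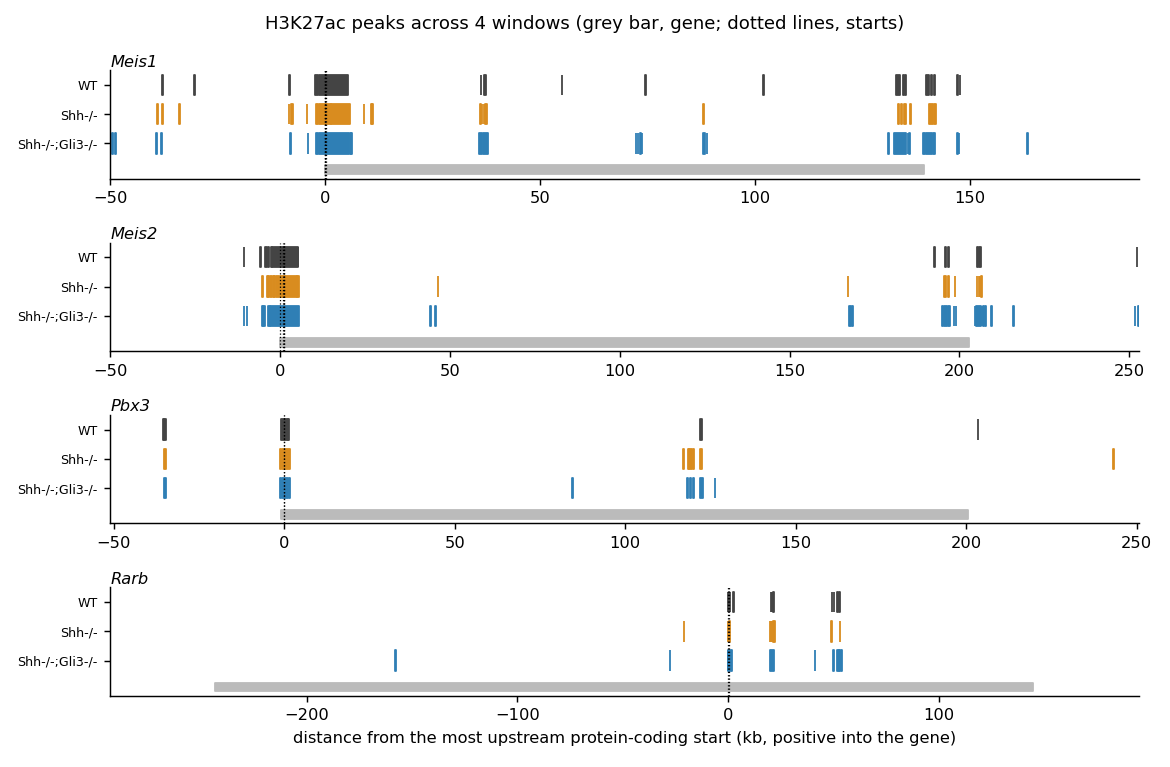
Peaks (bars) of the 3 lists across the windows of Meis1, Meis2, Pbx3 and Rarb, along the distance in kb from the most upstream protein-coding start, with the gene as a grey bar. Acetylated clusters recur near the 3' ends of Meis1 and Meis2 and in introns of Pbx3 and Rarb, and the Shh-/-;Gli3-/- list adds bars around them.

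The patterns searched for were about as frequent at these genes as in distal regions at large. In 300 bases about the centre, TGACAG was in 26 of 120 regions (21.7%) and in 19.4% of all 34564, and TGATTNAT in 5 of 120 (4.17%) and 3.998%. The GLI site TGGGTGGTC was in 0 of 120 and 0.257%. The direct repeat with a spacer of 5 bases was in 1 of 120, at chr2:115870750-115870999 in a Meis2 intron (Shh-/-;Gli3-/- only), and in 0.130%, and the repeat with a spacer of 2 bases in 0 of 120 and 0.200%. In the 7 RefSeq promoters of the 6 genes that had an entry, TGACAG was in that of Rarb only (19.2% of all promoters) and TGATTNAT (3.22%), TGGGTGGTC (0.253%) and the repeat with a spacer of 2 bases (0.268%) in none. No 2 patterns shared bases. A match is a stretch of letters, not a bound site.

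A wider list of 24 genes of the same pathways was counted beside the 9. Promoter peaks were at 11 of them in WT, 13 in Shh-/- and 12 in Shh-/-;Gli3-/-, against 44.3%, 48.2% and 46.3% of all protein-coding genes. By covered length, 4 of 12 tested were higher in Shh-/- than in WT, 7 of 15 higher in Shh-/-;Gli3-/- than in WT and 3 of 15 higher in Shh-/-;Gli3-/- than in Shh-/-, against the genome shares of 25.1%, 35.2% and 17.3% above, and none was lower in any comparison. Stra6, the membrane receptor for retinol uptake, had 1300 bp in WT, 2900 bp in Shh-/- and 2600 bp in Shh-/-;Gli3-/-. Crabp1, the second cellular retinoic acid binding protein, had 2350, 3800 and 5150 bp and a promoter peak in both mutants only (350 and 150 bp). Pknox2, a TALE relative of Meis, had 800, 550 and 2200 bp and likewise a promoter peak in both mutants only (300 and 100 bp). Rbp4 had a promoter peak of 100 bp in WT only and Dhrs3, a retinaldehyde reductase, one of 150 bp in Shh-/- only.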

How the data were processed

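Forelimb bud H3K27ac MicroChIP-seq of 3 genotypes was analysed from 3 deposited peak lists, 1 per genotype, called by the authors with CisGenome 2.1.0 on mm10 with Bowtie2 2.2.5 alignments (tools as in the submitters' processing notes), after 12 PCR cycles. By its label each list belongs to replicate 1, with pooling not stated, and as the genotype label reads wild type throughout, groups came from titles. The authors' lists give start, end and width in 50-bp steps, a score (the peak maximum), a log2 fold over that genotype's input, a −log10 Poisson p-value and an FDR (q-value). Coordinates are printed as deposited, and as the sources used here do not give whether they count from 0 or 1, they may be off by 1 base. Folds were not tested between lists, but regions were ranked by their highest fold in any list, so a list with higher folds weighs more in the choice of regions. The depth of the libraries was not used here. Covered length, overlap (at least 1 bp) and Wilson 95% intervals were obtained with pandas 2.3.3, scipy 1.17.1 and numpy 2.4.6 (Python 3.11.15), sequences were read with pysam 0.24.0, and the counting was tested on simulated data. Gene models were GENCODE M21 basic, and promoter sequences RefSeq (GRCm38.p6), which had an entry for 6 of the 9 genes (none for Pbx3, Rdh10 and Crabp2). Members and lists were chosen with earlier results of these data known. All 9 genes were named, with the widest promoter peak of each and the up to 3 distal regions of highest fold per presence class, and a gene of the wider list only where its promoter peak was absent from 1 list and present in another or its covered length differed 2-fold from WT. Other regions given in the text were picked after their values were seen.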

Additional observations from a re-analysis of the deposited data

How the results depend on the processing

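No paired analysis was possible because the files give 1 peak list per genotype and no value per replicate, and for the same reason no replicate could be left out. A count stayed if within 1.5 times the reported one and a share if within its interval. Recomputed under all alternatives, 97 summary values stayed and 24 moved, and of the ratios of single genes 294 stayed, 10 moved and 3 reversed. For covered length, peaks with FDR below 0.05 gave 4 genes higher in Shh-/-;Gli3-/- than in WT, and FDR below 0.01 gave 2 higher in Shh-/- than in WT. Equal numbers of peaks gave 0 higher in Shh-/- and 1 higher in Shh-/-;Gli3-/- than in WT. With equal covered length the counts higher and lower were 0 and 1 for Shh-/- against WT, 0 and 1 for Shh-/-;Gli3-/- against WT and 1 and 1 for Shh-/-;Gli3-/- against Shh-/-. Centred ratios and a fold of 2 each gave 0, 0 and 1 higher in the 3 comparisons. The share of distal WT peaks overlapped by Shh-/-;Gli3-/- was 77.8% with FDR below 0.01 and 34.6% with equal covered length, and gaps of up to 500 bp gave 65.4% for Shh-/- and 75% for Shh-/-;Gli3-/-. With gaps in peaks closed, an alternative chosen after seeing the data like all those on promoter width, 0 genes were narrower in Shh-/- than in WT, 1 was wider in Shh-/-;Gli3-/- than in WT, and 1 was wider and 1 narrower than in Shh-/-. The log2 ratio of promoter width in Shh-/- against WT became 0.018 at Meis1 and 0.087 at Meis2, and at Meis2 in Shh-/-;Gli3-/- against Shh-/- it became -0.016. Beyond the construction of each alternative, the cause was not tested. Within the tolerance, the 100 kb window gave 3 genes higher in Shh-/-;Gli3-/- than in WT, and FDR below 0.01 gave 3 higher in Shh-/-;Gli3-/- than in WT and 3 than in Shh-/-. The window of 10 kb, whole peaks and a narrower promoter window changed no count of genes.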
